A study of Mus musculus with 12 samples.

Results

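The genes described here encode the proteins of the cytosolic ribosome. They were taken by name from the measured genes, as symbols that begin Rps or Rpl followed by a digit, the P proteins Rplp0 to Rplp2 and Rpsa, leaving out pseudogene symbols, the S6 kinases and the Rps19 binding protein gene. The rule found 62 of the 19938 genes with a probe set of their own, and 59 of these were among the 14953 genes bright enough to test. By symbol, 24 of the 59 belong to the small subunit and 35 to the large one.

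The hypothalamus of obese mice was profiled after treatment with one of a pair of plant compounds known to make such animals eat less and lose weight. The 12 samples came from male C57BL/6J mice, 23 weeks old, which had eaten a diet with 45% fat for 20 weeks from the age of 3 weeks. All received DMSO, the vehicle, by intraperitoneal injection for 4 days, followed by 4 days of daily withaferin A at 2 mg/kg, celastrol at 100 µg/kg or DMSO. Each group had 4 arrays, labelled as biological replicates, and no lean mice are among them. The doses of the compounds differ, so a difference between them is one between these treatments as given. The values are log2 signals made by the authors with RMA, so a difference of 1 is a factor of 2, and errors of differences are standard errors (SE) of a limma fit with n = 4 arrays a group. Of 18 hypothalamic markers the brightest were Hcrt, Pmch and Oxt, with mean log2 signals of 12.18, 12.03 and 11.35. These lay at or above the 97.6th percentile of all genes, while Pomc, at 8.4, was at the 65th. The dimmest of the markers were Kiss1, at the 39.3rd percentile, and Crh, at 6.06 and the 28.4th. Pituitary markers were uneven: the mean of 6 tested marker genes over DMSO was 2.09 on celastrol replicate 2, 0.39 to 0.43 on the other celastrol arrays, 0.07 to 0.42 on the withaferin A arrays and -0.20 to 0.16 on the DMSO arrays. Thalamus markers were uneven within each group. The mean of 12 was -0.23 to 0.51 with withaferin A, -0.10 to 0.65 with celastrol and -0.38 to 0.49 with DMSO.

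A cytosolic ribosome is built from a small subunit, which reads the mRNA, and a large subunit, which joins the amino acids, and each subunit holds most of its proteins in 1 copy. Many mRNAs of ribosomal proteins begin with a run of pyrimidines, the terminal oligopyrimidine (TOP) tract, through which the kinase mTOR controls their translation when nutrients and hormones change. That control acts mainly on translation, so the amount of mRNA measured on an array need not follow it. Most of these genes also have processed pseudogene copies elsewhere in the genome, to which probes may bind.

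The starts of the annotated transcripts show the feature that this gene family is known for. A TOP-like tract was searched as a C followed by at least 4 pyrimidines, on the sense strand, beginning within 5 bases of the RefSeq start. It was present in 32 of 68 protein-coding genes of the family with a promoter in the table, or 47.1%, against 3767 of 17492 protein-coding genes in all, or 21.5%. The windows shown are those that the table holds for the 10 genes with the smallest p in the withaferin A comparison, which leaves Rps29, Rpl7 and Rps4l without one, and those of Rps15a, the lowest gene, and Rps6, in the GRCm38.p6 build of RefSeq, from 10 bases before the start to 20 bases after, with the tract in capitals. Rps9 lies at chr7:3704031-3704060 on the plus strand, Rps15a at chr7:118116128-118116157 on the minus strand, Rps21 at chr2:180257369-180257398 on the plus strand, the upstream one of 2 annotated starts, Rps6 at chr4:86857348-86857377 on the minus strand and Rps23rg1 at chr8:3567988-3568017 on the plus strand. The windows without a tract are those of Rpl37a at chr1:72711250-72711279 on the plus strand, Rps28 at chr17:33824543-33824572 on the minus strand, Rps7 at chr12:28635934-28635963 on the minus strand and Rps15 at chr10:80292421-80292450 on the plus strand.
Rps9: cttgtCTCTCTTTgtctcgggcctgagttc
Rps15a: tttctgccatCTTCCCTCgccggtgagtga
Rps21: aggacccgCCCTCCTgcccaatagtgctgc
Rps6: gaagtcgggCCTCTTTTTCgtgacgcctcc
Rps23rg1: gcagagagtCTTTCTCTCaccccagataaa
Rpl37a: ctcgccggtctaaaaccgcgcatgcgcatt
Rps28: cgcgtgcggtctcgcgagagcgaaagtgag
Rps7: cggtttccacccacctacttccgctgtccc
Rps15: cagagctcgcgataactgcgcaagcgcagc
Of these 5 tracts the one of Rps15a starts exactly at the annotated base and runs for 8 pyrimidines, while that of Rps9 starts 5 bases before it. An annotated start can lie some bases away from the start used in a tissue. A window without capitals says only that no such run begins within 5 bases of the annotated start. The Rps7 window holds such a run further downstream. In the 300 bases from 250 before to 50 after the start, on either strand, CCGGAAG, a motif bound by ETS factors, was found in 26 of the 68 genes (38.2%, against 12.9% of all). AAGATGG, a core of the YY1 motif, was found in 10 (14.7%, against 7.18% of all). The TATA motif TATAAA was found in 8 (11.8%, against 14.8% of all).

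In the comparison of withaferin A with DMSO, most ribosomal protein genes had slightly lower signals after withaferin A, and no single one passed the test. The median log2 difference of the 59 genes was -0.091, against -0.004 over all tested genes. The difference was below 0 for 49 of the 59 (83.1%), against 51.5% of all tested genes. After Benjamini-Hochberg adjustment over all tested genes, limma called 0 of the 59 at 0.05, with 0% of all genes called and a smallest adjusted p of 0.169 among the family. At an unadjusted p under 0.05, 24 were lower and 2 were higher, or 26 of 59, where 9.11% of all tested genes were lower and 6.62% were higher by the same rule. These counts and medians describe the family and carry no test of their own.

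The size of this difference depends on how the arrays are scaled. After a renewed quantile normalization of the deposited values the median of the family was -0.04, with 38 of the 59 below 0 and 9 lower at an unadjusted p under 0.05, while centring each array on its median gave -0.137, 53 below 0 and 29 lower. The SD of all probe sets on an array was 2.187 to 2.221 with withaferin A, 2.208 to 2.252 with celastrol and 2.225 to 2.285 with DMSO, so that the withaferin A arrays had the narrower range of signals and did not overlap the DMSO arrays.

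**Figure D1:**
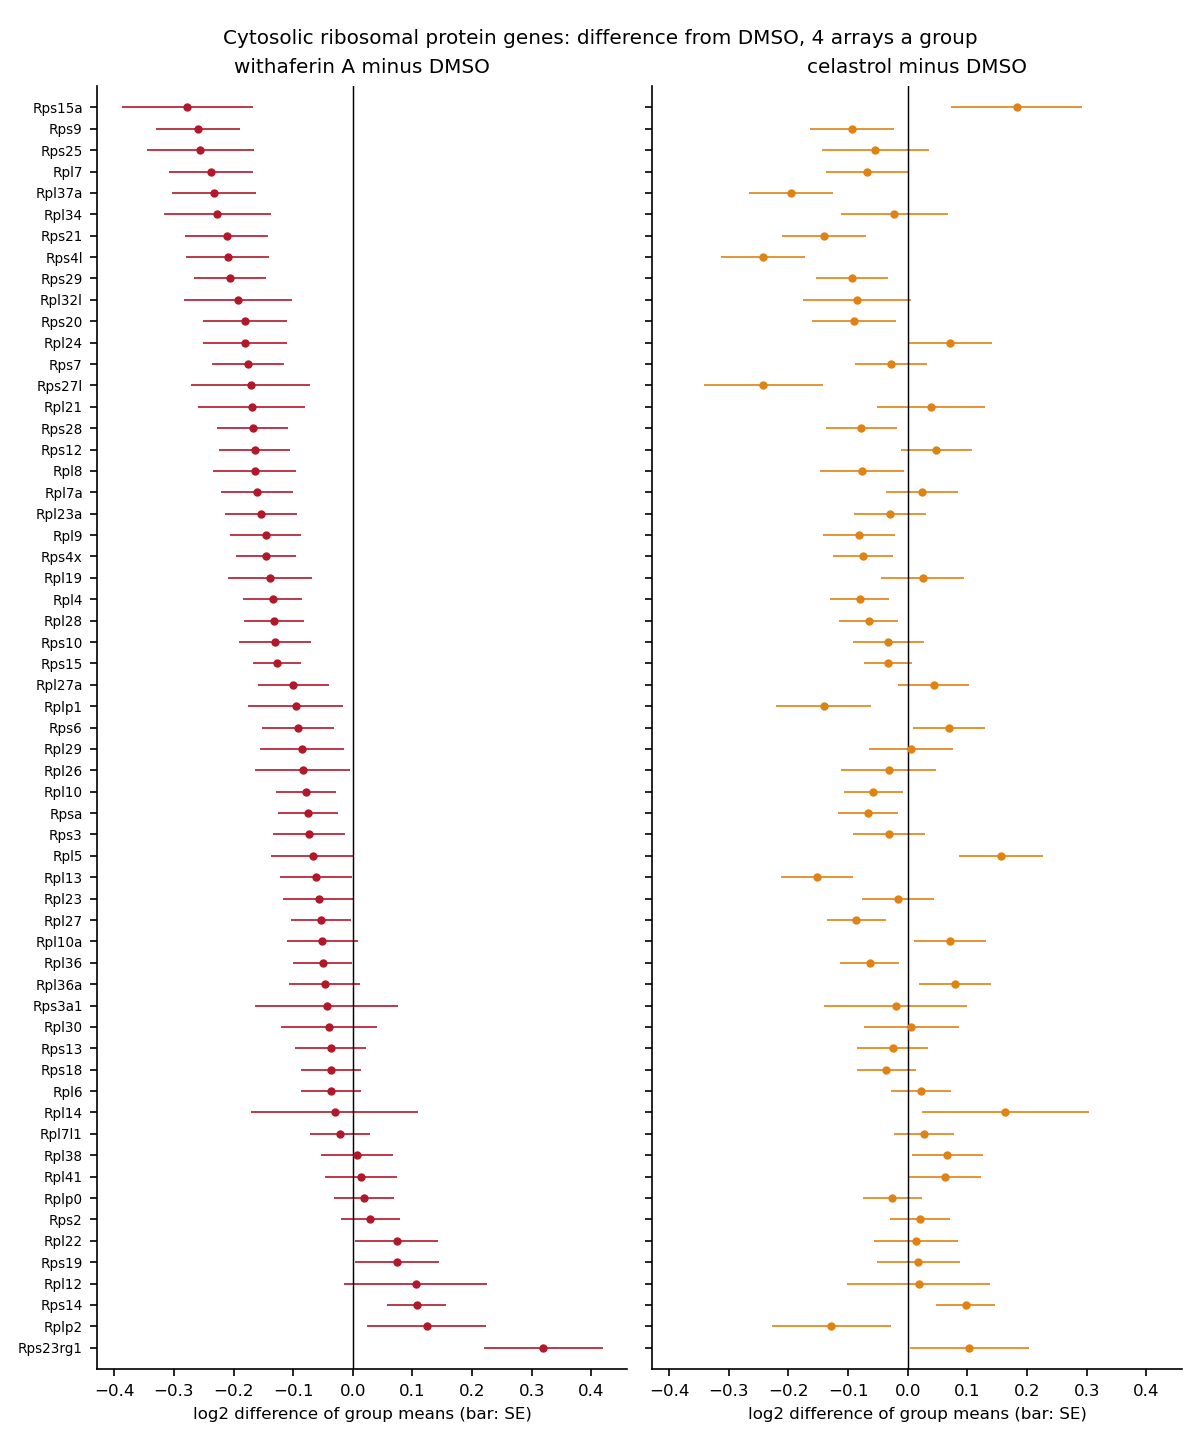
Log2 difference from DMSO (x axis) for each of the 59 tested ribosomal protein genes (y axis, ordered by the withaferin A difference), for withaferin A on the left and celastrol on the right. Points are differences of means of 4 arrays and bars are SE. After withaferin A 49 of 59 points lie left of 0, and after celastrol 35 do.

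Ribosomal protein mRNAs are abundant and their probe sets are bright, and the withaferin A difference moved with brightness over all genes. With all tested genes ordered by mean signal and cut into deciles of equal size, 35 of the 59 genes were in the brightest decile and 10 in the next. The median withaferin A difference of all tested genes ran down from 0.099 in the dimmest decile to -0.047 in the brightest. In the brightest decile 76.1% of genes were below 0. At an unadjusted p under 0.05, 251 of its 1495 genes were lower and 11 were higher. The 35 ribosomal protein genes in the brightest decile had a median of -0.091, lower than that of the decile as a whole, and the 10 genes in the next decile had a median of -0.173, against -0.045 for all genes there. For celastrol the deciles ran from 0.008 to -0.026, and the 35 genes had a median of -0.03. The part of brightness in the family's difference was not tested.

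**Figure D2:**
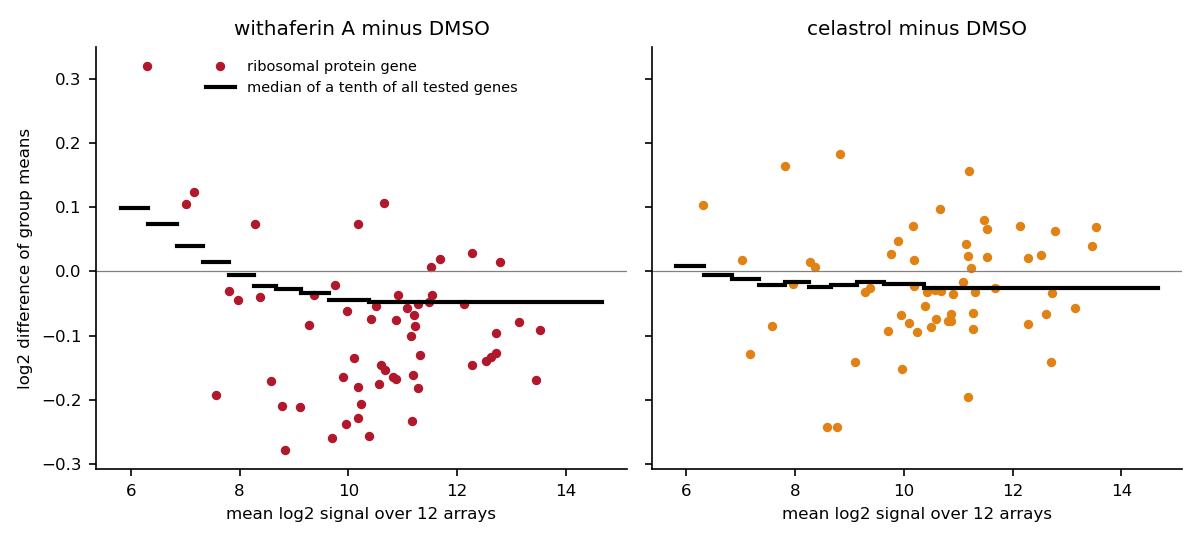
Log2 difference from DMSO (y axis) against mean log2 signal over the 12 arrays (x axis), for withaferin A on the left and celastrol on the right. Each point is a ribosomal protein gene and each black line spans a decile of all tested genes at their median difference, which after withaferin A falls from 0.099 to -0.047 as signal rises.

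Each withaferin A array showed the lower level. The mean over the 59 genes, as the deviation from each gene's DMSO mean, was -0.064, -0.106, -0.068 and -0.128 on the 4 withaferin A arrays. It was 0.008, 0.032, -0.070 and -0.062 on the celastrol arrays and 0.034, -0.002, -0.027 and -0.006 on the DMSO arrays. All withaferin A arrays lay below all DMSO arrays, and celastrol replicates 3 and 4 lay close to the highest withaferin A arrays while replicates 1 and 2 lay among the DMSO arrays. Group means were -0.092 ± 0.031 for withaferin A, -0.023 ± 0.051 for celastrol and 0 ± 0.025 for DMSO (SD, n = 4 each). The genes moved together from array to array within a group as well: of 59, 44 were above their own group mean on withaferin A replicate 1 and 19 on replicate 4, and 45 on celastrol replicate 2 and 11 on replicate 3, while the DMSO arrays ran from 25 to 38. Over all tested genes that share stayed between 42.5% and 65.1% on the 12 arrays. Because such shared swings make the genes of the family poor replicates of one another, the count of genes below 0 is not a count of independent observations.

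**Figure D3:**
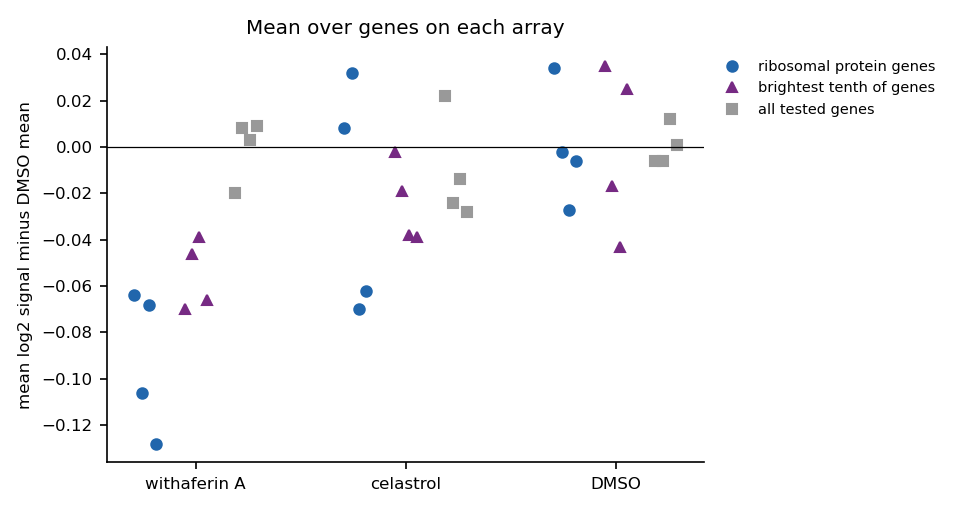
Mean deviation from the DMSO mean of each gene (y axis, log2) on each of the 12 arrays, by group (x axis), for the 59 ribosomal protein genes (circles), the brightest decile of tested genes (triangles) and all tested genes (squares). The circles of the 4 withaferin A arrays, -0.128 to -0.064, lie below all 4 DMSO arrays, and those of celastrol split into 2 above 0 and 2 below.

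Proteins of the small subunit included the genes with the smallest p. Rps29 (probe set 10400635), a small zinc-binding protein, had log2 signals of 10.15, 10.16, 10.14 and 10.07 after withaferin A, 10.31, 10.30, 10.20 and 10.16 after celastrol and 10.42, 10.26, 10.39 and 10.27 with DMSO. All withaferin A arrays were below all DMSO arrays, and the difference was -0.21 ± 0.06, a change of -13.3% (limma adjusted p = 0.169). The 4 probe sets of Rps29 gave differences of -0.25 to -0.20. Rps9 (probe set 10549588), an early-binding protein of the small subunit, had 9.51, 9.56, 9.72 and 9.45 after withaferin A and 9.81, 9.91, 9.92 and 9.64 with DMSO. These groups overlapped through withaferin A replicate 3 and DMSO replicate 4, and the difference was -0.26 ± 0.07 (limma adjusted p = 0.177). Rps15, a protein of the head of the small subunit, varied little within groups, with 12.64, 12.64, 12.66 and 12.65 after withaferin A against 12.78, 12.75, 12.75 and 12.80 with DMSO. Here the groups did not overlap, although the difference was only -0.13 ± 0.04 (limma adjusted p = 0.226). It was -0.051 after the renewed quantile normalization and -0.042 after cyclic loess, an alternative added after the data were seen.

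Rps28, one of the smallest proteins of the subunit, had 10.85, 10.84, 10.77 and 10.68 after withaferin A, 10.84, 10.92, 10.86 and 10.88 after celastrol and 11.05, 10.86, 10.97 and 10.94 with DMSO. Rps21, another small protein, had 9.05, 9.07, 8.89 and 9.04 after withaferin A, 9.19, 9.08, 8.90 and 9.16 after celastrol and 9.35, 9.23, 9.22 and 9.10 with DMSO. For both genes the withaferin A arrays lay just below all DMSO arrays and the celastrol arrays overlapped both groups, and the withaferin A differences were -0.17 ± 0.06 and -0.21 ± 0.07 (limma adjusted p = 0.215 and 0.228). The second probe set of Rps21, which is dimmer, was near 0, at -0.01 after withaferin A and 0.04 after celastrol, and the mean of both gave -0.108 after withaferin A and -0.049 after celastrol. Rps7, Rps12 and the X-linked Rps4x also had all withaferin A arrays below all DMSO arrays, with differences of -0.18, -0.16 and -0.15 and adjusted p between 0.226 and 0.244. The renewed quantile normalization brought Rps28 to -0.104, Rps7 to -0.113, Rps4x to -0.079 and, in the large subunit, Rpl37a to -0.14. In the family as a whole, 11 of 59 genes had withaferin A arrays wholly below the DMSO arrays and 1 had them wholly above, where 4.69% and 2.91% of all tested genes did so. Of these 12 genes 8 belong to the small subunit. In the brightest decile of all tested genes, where most of the family lies, 166 of 1495 genes lay wholly below DMSO and 12 wholly above. Rps12 stands for 14 probe sets, of which 8 hold distinct values, and all 14 were below 0, from -0.33 to -0.06. Whether these probe sets bind copies of Rps12 was not tested. The median difference was -0.138 over the 24 small-subunit genes and -0.079 over the 35 large-subunit genes, with 20 of 24 and 29 of 35 below 0, and the difference between the subunits was not tested.

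The lowest difference of the family was that of Rps15a (probe set 10567216), a small-subunit protein. It had 8.79, 8.38, 8.75 and 8.41 after withaferin A, 9.18, 9.13, 8.92 and 8.94 after celastrol and 9.06, 8.81, 8.67 and 8.91 with DMSO. The withaferin A arrays were spread out and overlapped the DMSO arrays, and the difference was -0.28 ± 0.11, a change of -17.5% (limma adjusted p = 0.256).

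Among the small-subunit genes 4 had higher values after withaferin A, and the clearest were Rps14 and Rps23rg1. Rps14, a protein of the small subunit's platform, had 10.73, 10.70, 10.70 and 10.68 after withaferin A, 10.76, 10.69, 10.65 and 10.69 after celastrol and 10.56, 10.55, 10.62 and 10.66 with DMSO. It is the 1 gene of the family with all withaferin A arrays above all DMSO arrays, at 0.11 ± 0.05 (limma adjusted p = 0.295), and its other probe set gave 0.07. The highest difference was that of Rps23rg1 (probe set 10569823), a mouse gene that arose by retrotransposition from Rps23 and is not a standard ribosomal protein gene. Its signals were 6.37, 6.29, 6.52 and 6.74 after withaferin A, 6.36, 6.30, 6.23 and 6.19 after celastrol and 5.90, 6.22, 6.35 and 6.18 with DMSO. The groups overlapped, and the difference was 0.32 ± 0.10, or 24.8% higher (limma adjusted p = 0.202). It was the dimmest gene tested in the family and the only one in the dimmest decile, where all genes had a median of 0.099.

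**Figure D4:**
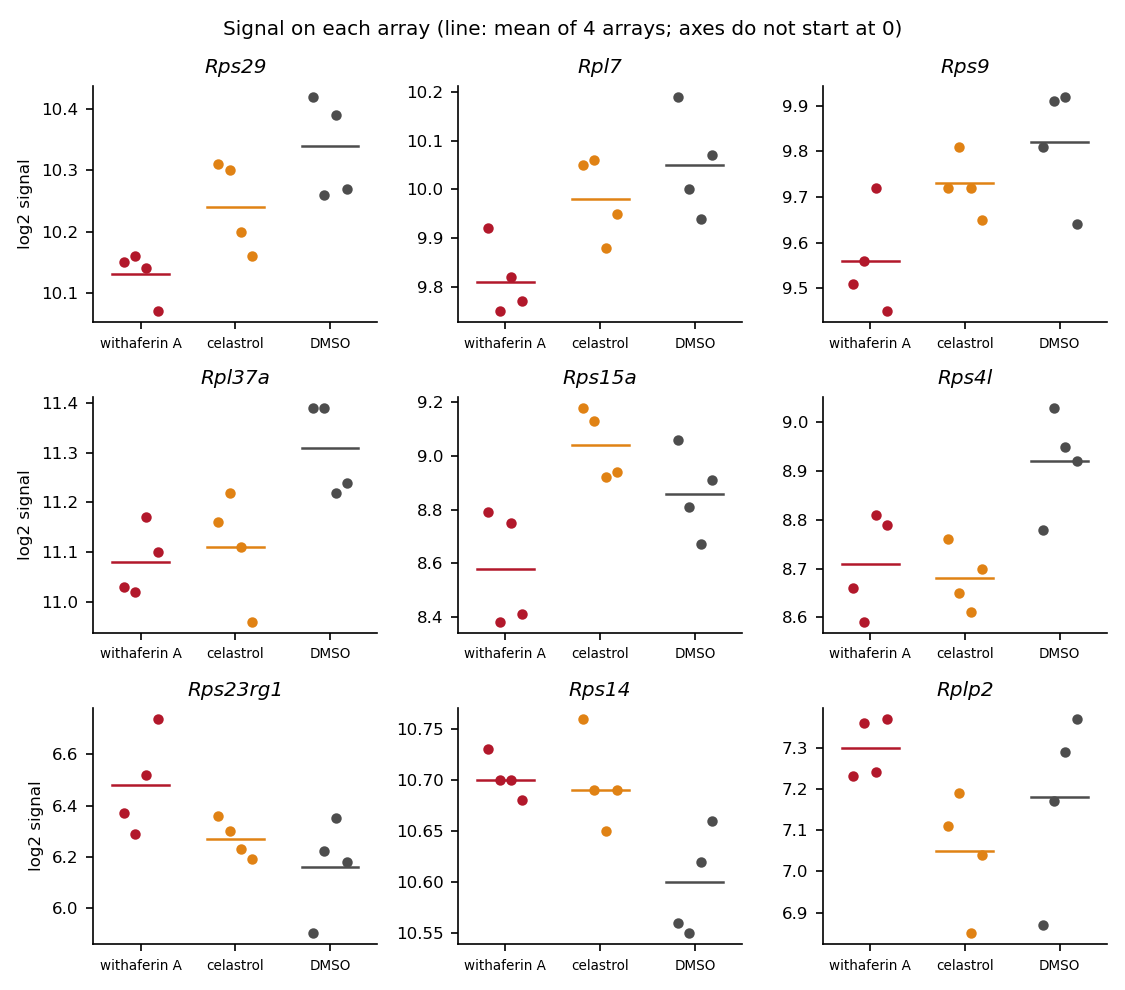
Log2 signal (y axis, not starting at 0) of 9 ribosomal protein genes on each array, for withaferin A, celastrol and DMSO from left to right. Points are arrays and lines are means of 4. In Rps29, Rpl7 and Rpl37a all withaferin A points lie below all DMSO points, in Rps14 all lie above, and in Rps15a and Rplp2 the withaferin A and celastrol points do not overlap.

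In the large subunit, Rpl7 (probe set 10522782) had the smallest p. It had 9.92, 9.75, 9.82 and 9.77 after withaferin A, 10.05, 10.06, 9.88 and 9.95 after celastrol and 10.19, 10, 9.94 and 10.07 with DMSO. All withaferin A arrays were below all DMSO arrays, by a difference of -0.24 ± 0.07, a change of -15.2% (limma adjusted p = 0.169), and its 4 probe sets gave -0.24 to -0.15. Rpl37a (probe set 10561138), a zinc-binding protein, had 11.03, 11.02, 11.17 and 11.10 after withaferin A, 11.16, 11.22, 11.11 and 10.96 after celastrol and 11.39, 11.39, 11.22 and 11.24 with DMSO. Withaferin A and DMSO did not overlap for it, and the difference was -0.23 ± 0.07 (limma adjusted p = 0.18). Rpl7a had 11.17, 11.09, 11.07 and 10.94 after withaferin A, 11.22, 11.34, 11.23 and 11.22 after celastrol and 11.19, 11.30, 11.17 and 11.25 with DMSO. Its withaferin A arrays lay below all others to within the rounding of these values, at -0.16 ± 0.06 against DMSO (limma adjusted p = 0.239), and Rpl28 had a difference of -0.13 ± 0.05 with its groups apart.

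The P stalk, through which the ribosome recruits elongation factors, had values on both sides of 0. Rplp0 differed by 0.02 ± 0.05, Rplp1 by -0.10 ± 0.08 and Rplp2 by 0.12 ± 0.10 after withaferin A, with none of them called by limma. The 2 probe sets of Rplp0 lay on either side of 0, at -0.03 and 0.02. Rpl5, which with Rpl11 and 5S rRNA binds the p53 regulator Mdm2, differed by -0.07 ± 0.07. Rps6, the substrate of the S6 kinases, had a difference of -0.09 ± 0.06, with all 8 of its probe sets below 0, from -0.11 to -0.06. The Rps6 difference was 0.001 after cyclic loess and that of Rpl5 0.026 after the renewed quantile normalization. Rpsa, also known as the laminin receptor, differed by -0.07 ± 0.05 and Rpl41, which encodes the smallest protein of the ribosome, by 0.01 ± 0.06.

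Genes of this family often serve as references when mRNA is measured by PCR. After withaferin A, Rplp0 and Rps18 differed by 0.02 and -0.04, Rpl27 by -0.05, Rpl19 by -0.14 and Rps29 by -0.21, and after celastrol by -0.03, -0.04, -0.09, 0.02 and -0.09 in that order. The sign of Rplp0 after withaferin A turned with centring (-0.027), and those of Rps18 and Rpl27 with the renewed quantile normalization (0.036 and 0.009).

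Some paralogs of the standard genes were too dim to test. Rpl3l, a form of striated muscle, Rpl10l and Rpl39l, forms of the testis, had mean log2 signals of 4.92, 5.71 and 4.09, under the limit of 5.81, and were not tested. Rps27l, a paralog of Rps27 that p53 induces, differed by -0.17 ± 0.10 after withaferin A and -0.24 ± 0.10 after celastrol. Rpl7l1, a paralog of Rpl7, and the X-linked Rpl36a differed by -0.02 and -0.05 after withaferin A, and by 0.03 and 0.08 after celastrol. Rps4l, which RefSeq lists as a transcribed pseudogene, is described with celastrol.

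The tested genes not singled out above or in the other comparisons were 8 of the small subunit and 18 of the large one. After withaferin A the 8 ranged from -0.26 (Rps25) to 0.07 (Rps19), with 6 below 0, and the 18 from -0.23 (Rpl34) to 0.11 (Rpl12), with 15 below 0. After celastrol they ranged from -0.09 (Rps20) to 0.02 (Rps2) and from -0.08 (Rpl32l) to 0.16 (Rpl14), with 6 and 10 below 0. These genes at the ends of the ranges were picked after their values were seen.

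Over all single-symbol probe sets of the family, both those used above and those left out, most were below 0 after withaferin A. The family's single-symbol probe sets number 218, of which 206 hold distinct values, and 202 of them (92.7%) were below 0 after withaferin A, with a median of -0.115, against 42.6% and 0.03 over all 35556 probe sets. All 35556 include dim probe sets and ones without a symbol, while most of the family's are bright. In the brightest decile of tested genes 76.1% of genes were below 0 after withaferin A, with a median of -0.047. Of the family's 39 genes with several probe sets, 34 had all of them below 0, 2 had all above and 3 were mixed. After celastrol 139 of the 218 were below 0, with a median of -0.025, and 19 of the 39 genes had all their probe sets below 0 and 9 all above. Probe sets of one gene can hold near-identical copies, so these counts show how even the value is over copies and not further genes.

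Genes with an annotated TOP-like tract had a median withaferin A difference of -0.131 (19 genes, 14 below 0), against -0.070 for the 28 tested genes without one (24 below 0). The ranges, -0.28 to 0.32 with a tract and -0.26 to 0.07 without, overlapped widely, and the difference was not tested. After celastrol the medians were 0.018 with the tract and -0.027 without.

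In the comparison of celastrol with DMSO, the ribosomal protein genes had no common direction beyond that of all genes. The median was -0.028 over the 59 genes and -0.017 over all tested genes, and 35 of 59 were below 0 (59.3%, against 57.4% of all). Limma called 0 of the 59, where 0.769% of all genes were called. At an unadjusted p under 0.05, 4 genes were lower and 1 was higher, with 6.25% of all genes lower and 4.19% higher by that rule. The arrays of the groups lay wholly apart for 2 genes that were lower, Rps4l and, by less than the rounding of its values, Rpl37a, and for 0 that were higher (4.5% and 2.71% of all genes). Leaving out celastrol replicate 2, the array with the high pituitary signal, gave a median of -0.039 and 0 calls. The median was nearer 0 without celastrol replicate 3, at -0.01, or without DMSO replicate 1, at -0.007.

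Rps4l (probe set 10542872) had the smallest p after celastrol. It had 8.76, 8.65, 8.61 and 8.70 after celastrol and 8.78, 9.03, 8.95 and 8.92 with DMSO, and the groups were just apart. The difference was -0.24 ± 0.07, a change of -15.5% (limma adjusted p = 0.149). The second probe set of Rps4l gave -0.121 after celastrol, and the mean of both gave -0.182 (limma adjusted p = 0.336). After withaferin A probe set 10542872 had 8.66, 8.59, 8.81 and 8.79, which overlapped DMSO at -0.21 ± 0.07. Rps4x, the X-linked gene of the same protein family, differed by -0.07 ± 0.05 after celastrol. Whether probes of one bind transcripts of the other was not tested.

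Rpl37a, with the values given above, differed by -0.20 ± 0.07 after celastrol (limma adjusted p = 0.257). Rpl13 had 9.94, 9.92, 9.95 and 9.74 after celastrol against 10.03, 10.11, 10.07 and 9.94 with DMSO, at -0.15 ± 0.06 (limma adjusted p = 0.412), and overlapped DMSO through DMSO replicate 4. Rpl5 was the 1 gene higher at an unadjusted p under 0.05. It had 11.24, 11.49, 11.25 and 11.33 after celastrol against 11.28, 11.15, 11.06 and 11.19 with DMSO, at 0.16 ± 0.07 (limma adjusted p = 0.465). Replicate 2 was the highest of the celastrol arrays, and the groups overlapped.

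The rest of the 10 smallest p values after celastrol were spread over both directions. Rps14 differed by 0.10 ± 0.05, Rps15a by 0.18 ± 0.11, the highest of the family, Rps21 by -0.14 ± 0.07, Rplp1 by -0.14 ± 0.08 and Rpl27 by -0.09 ± 0.05. The adjusted p of these 5 lay between 0.502 and 0.618. The comparisons of the compounds with DMSO share the 4 DMSO arrays, so their differences are not independent. Rpl37a and Rps14 had the same sign in both, and the part of the DMSO values in this was not tested.

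In the direct comparison of withaferin A with celastrol, the withaferin A arrays had the lower values for most of the family. The median difference was -0.065, against 0.013 over all tested genes, and 45 of 59 were below 0 (76.3%, against 45.1% of all). Limma called 0 of the 59, where 0.0468% of all genes were called. At an unadjusted p under 0.05, 13 were lower and 1 was higher, where 7.46% of all genes were lower and 8.67% higher. The arrays lay wholly apart for 10 genes that were lower and 1 that was higher (5.35% and 3.92% of all). This difference also moved with brightness, from a median of 0.088 over all genes in the dimmest decile to -0.023 in the brightest. In the brightest decile 61.7% of genes were below 0, and the family's 35 genes there had a median of -0.072. Of its 1495 genes, 148 were lower at an unadjusted p under 0.05 and 32 higher, and 177 lay wholly below and 25 wholly above. The renewed quantile normalization gave a median of -0.013 with 35 of 59 below 0 and 4 lower at an unadjusted p under 0.05, and without celastrol replicate 2 the median was -0.046 and 5 were lower.

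Rps15a, whose values stand above, had the largest difference of the family between the compounds, -0.46 ± 0.11, a change of -27.3% (limma adjusted p = 0.114). Its withaferin A arrays all lay below its celastrol arrays, and the DMSO mean of 8.86 lay between the group means of 8.58 and 9.04. Rpl24, the gene mutated in the belly spot and tail mouse, had 9.99, 9.97, 10.13 and 10.02 after withaferin A and 10.30, 10.44, 10.20 and 10.18 after celastrol. The groups did not overlap, and the difference was -0.25 ± 0.07 (limma adjusted p = 0.156). Rps12, Rpl7a, Rpl5, Rps6, Rpl27a and Rps7 were likewise below celastrol on all withaferin A arrays, with differences of -0.21, -0.19, -0.22, -0.16, -0.14 and -0.15. So was Rpl21, by less than the rounding of its values, at -0.21 ± 0.09 (limma adjusted p = 0.268). Its 9 probe sets gave -0.21 to -0.05, and its difference from DMSO after withaferin A was -0.17 ± 0.09. After the renewed quantile normalization Rpl7a was at -0.104, Rpl27a at -0.063 and Rps7 at -0.097, and after cyclic loess Rps6 was at -0.099.

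Rplp2, an acidic protein of the P stalk, went the other way. It had 7.23, 7.36, 7.24 and 7.37 after withaferin A, 7.11, 7.19, 6.85 and 7.04 after celastrol and 6.87, 7.17, 7.29 and 7.37 with DMSO. All withaferin A arrays were above all celastrol arrays, at 0.25 ± 0.10 (limma adjusted p = 0.249), while the DMSO arrays overlapped both groups. Its probe set was among the dimmer ones of the family, with a mean log2 signal of 7.17.

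Many ribosomal protein genes carry small nucleolar RNA (snoRNA) genes in their introns, which are released from the same primary transcript and guide the chemical modification of ribosomal RNA. By RefSeq coordinates, whose strand was not used, 21 snoRNA genes lie within the spans of 15 genes of the family, and 12 in 10 host genes could be tested. Limma called 0 of the 12 in each comparison, and after withaferin A their median was -0.011 with 6 of 12 below 0. Snord73b, inside Rps3a1, stood apart from the others. Its log2 signals were 5.78, 5.84, 5.95 and 5.77 after withaferin A, 6.18, 6.19, 6.24 and 6.27 after celastrol and 6.72, 6.36, 6.26 and 6.53 with DMSO. The withaferin A arrays lay below all others, and celastrol overlapped DMSO only at its highest array. The difference from DMSO was -0.63 ± 0.09, a change of -35.5% (limma adjusted p = 0.0627), which passed 0.05 with array weights (0.0335), with a robust prior that follows intensity (0.035) and without DMSO replicate 3 (0.00826). Its adjusted p reached 0.137 when fitted on the 8 arrays of these groups, 0.132 with the replicate block and 0.213 without DMSO replicate 4. After celastrol it was -0.25 ± 0.09 (limma adjusted p = 0.258), and between the compounds -0.38 ± 0.09 (limma adjusted p = 0.102).

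The host gene's difference was near 0. Rps3a1 had 8, 7.84, 7.92 and 8.03 after withaferin A, 8.26, 7.77, 8.17 and 7.69 after celastrol and 8.21, 7.77, 8 and 7.99 with DMSO, a difference of -0.04 ± 0.12 after withaferin A (95% interval -0.31 to 0.22), with the groups overlapping. Among the other snoRNA genes after withaferin A, Snord42a and Snord42b in Rpl23a differed by -0.28 ± 0.14 and -0.18 ± 0.10, Snora52 in Rplp2 by -0.18 ± 0.09, and Snord16a in Rpl4 and Snord15a in Rps3 by 0.21 ± 0.11 and 0.20 ± 0.11. The hosts Rpl23a, Rplp2, Rpl4 and Rps3 differed by -0.15, 0.12, -0.13 and -0.07.

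**Figure D5:**
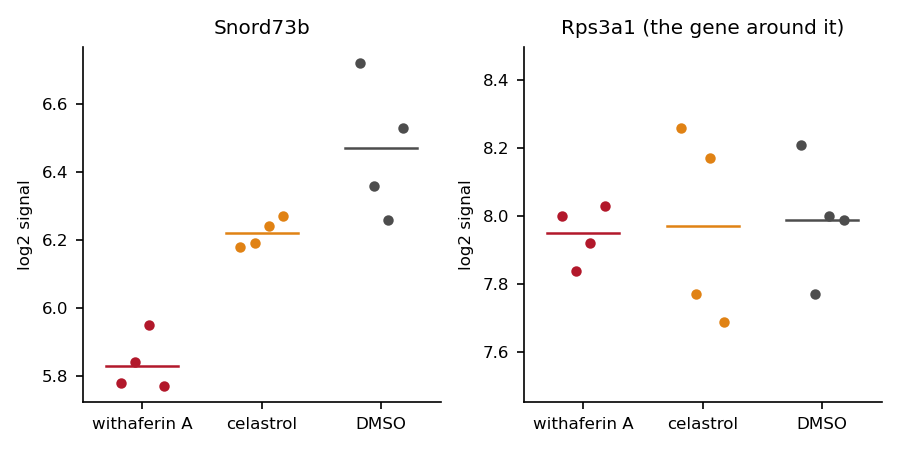
Log2 signal (y axes of equal span, not starting at 0) of the snoRNA gene Snord73b on the left and of Rps3a1, the gene around it, on the right, for withaferin A, celastrol and DMSO. Points are arrays and lines are means of 4. The Snord73b points after withaferin A, 5.77 to 5.95, lie below all others, while those of Rps3a1 overlap in all groups.

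Other genes of translation and ribosome assembly had medians below 0 after withaferin A, all nearer 0 than that of the ribosomal proteins. Of 31 tested translation initiation factors, 26 were below 0 after withaferin A with a median of -0.073, and 0 were called. Their share below 0 was 83.9% and their mean -0.089, close to the 83.1% and -0.092 of the ribosomal proteins. Eif1b, which helps choose the start codon, differed by -0.28 ± 0.08 and Eif4g2, a scaffold of cap-independent initiation, by -0.19 ± 0.06. The 10 elongation genes had a median of -0.045 with 0 called, among them Eef1b2 at -0.15 ± 0.07 and Eef1d at 0.17 ± 0.07. Of 78 ribosome biogenesis genes, 55 were below 0 with a median of -0.052 and 0 called, and the smallest p were those of the helicase gene Ddx47 at -0.33 ± 0.10 and Nop10, a protein of the box H/ACA particles, at -0.26 ± 0.08. The 26 genes of ribosomal RNA transcription had a median of -0.018 and 0 calls, with Myc at -0.26 ± 0.10, and the 19 genes of ribosome stress and quality control had a median of -0.034 and 0 calls.

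Among 24 genes that control TOP mRNAs, the median after withaferin A was -0.012 with 0 called, and Ssb, the La protein, which binds such mRNAs, differed by -0.28 ± 0.08. After celastrol 1 of the 24 passed: Ddit4, which inhibits mTOR complex 1 and is induced by glucocorticoids, rose by 0.74 ± 0.15 (limma adjusted p = 0.0403). Its adjusted p ranged from 0.0638 to 0.138 in 7 of the 12 fits that left out an array. The list's median after celastrol was -0.006.

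Markers of other cell types differed in the same samples. Of 11 tested oligodendrocyte markers, 6 were lower after withaferin A at an unadjusted p under 0.05, where 9.11% of all genes were, and limma called 0, and after celastrol 2 fell, the myelin gene Opalin by 1 ± 0.18 on the log2 scale and the lineage factor gene Sox10 by 0.39 ± 0.08 (limma adjusted p = 0.0229 and 0.0433), while another myelin gene, Mobp, was higher by 0.31 ± 0.08 without passing the test (limma adjusted p = 0.127). The mean of the 11 over DMSO was -0.24 to -0.10 on the withaferin A arrays, -0.23 to -0.14 on the celastrol arrays and -0.04 to 0.03 on the DMSO arrays. For 10 neuron markers, the means were -0.08 to -0.02 with withaferin A, -0.08 to 0.01 with celastrol and -0.06 to 0.05 with DMSO, with 0 called by limma. Of 9 endothelial markers 2 passed after celastrol, in opposite directions: the glucose transporter gene Slc2a1 rose by 0.75 ± 0.15 and the receptor gene Tek fell by 0.55 ± 0.11 (limma adjusted p = 0.0384 and 0.045). After withaferin A limma called 0 of the 9, with Slc2a1 at 0.36 ± 0.15 and Tek at -0.14 ± 0.11. The endothelial means per array were -0.11 to 0.03 with withaferin A, -0.18 to -0.04 with celastrol and -0.03 to 0.03 with DMSO. None of 10 astrocyte and 8 microglia markers passed in either comparison with DMSO, and 1 and 2 of them were lower after withaferin A at an unadjusted p under 0.05. After celastrol 3 and 2 were lower and 1 and 1 higher by that rule, where 6.25% of all genes were lower and 4.19% higher. Nearest the threshold were the astrocyte genes Sox9 at -0.37 ± 0.08 and Gjb6 at 0.43 ± 0.10 (limma adjusted p = 0.063 and 0.0698). The astrocyte means were -0.14 to 0 with withaferin A, -0.06 to 0.02 with celastrol and -0.03 to 0.06 with DMSO, and the microglia means were -0.23 to 0 with withaferin A, -0.14 to 0.06 with celastrol and -0.06 to 0.08 with DMSO. The part of cell composition in the ribosomal protein values was not tested, and in whole tissue fewer cells of a type and less RNA per cell cannot be told apart.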

How the data were processed

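Total RNA from the hypothalamus was measured on 12 one-colour Affymetrix arrays, 4 a group, which the labels call biological replicates. The authors deposited log2 signals of 35556 probe sets, made with RMA per the submitters' processing notes (version and annotation build not given in the sources used here). Depth does not apply to arrays; their number limits the precision. Here probe sets with 1 symbol in the platform annotation (21789 of 35556; 1621 had several and 12146 none) were used, the brightest per gene, and genes with a mean under the 25th percentile (log2 5.81) were left out. No dates or slides were used, since the labels give none. One limma fit over the 3 groups (limma 3.58.1, R 4.3.3, 9 residual and 4.44 prior degrees of freedom) gave differences, SE and p-values adjusted by Benjamini-Hochberg over 14953 genes at a threshold of 0.05, and was first tested on simulated data. The p-values measure the spread between these arrays.

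Of 88 protein-coding mouse genes that fit the name rule in RefSeq, 61 had a single-symbol probe set, 20 lay only on probe sets with several symbols and 7 had no listed probe set. Promoter windows come from RefSeq (GRCm38.p6), which matched 50 of the 62 measured genes. A planned look at protein sequences was not run. The genes named are the 10 with the smallest p in each comparison, those with the highest and lowest difference, set role groups, the dim genes, up to 4 per other list and 6 snoRNA genes by p; Rpl28 and snoRNA hosts beyond these were added after their values were seen. The members and all gene lists were chosen with earlier results of these data known. Alternatives changed the filter, probe set, normalization, prior, weights, samples, block and threshold, and left out each array in turn. The log2 signals of the 12 arrays correlated at 0.981 to 0.994. Deviations of the signals, rather than the signals themselves, were compared between arrays of different groups. For same-numbered arrays these correlated at -0.28 to 0.12, with 2 of 12 pairs over 0.1. For differently numbered ones they correlated at -0.2 to 0.23, with 10 of 36 pairs over 0.1. The labels do not say whether the numbers pair arrays, and these correlations cannot settle it. Figures were drawn with matplotlib 3.10.9 in Python 3.11.15.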

Additional observations from a re-analysis of the deposited data

Results flagged for a closer look

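Of 150 groups of 4 arrays examined by Dixon's test, 7 held an array far from the other 3, about the rate of 1 in 20 that chance gives. Among ribosomal protein genes, Rpl13 was at 9.74 on celastrol replicate 4 against 9.92 to 9.95 on the other celastrol arrays, and Rps4x at 10.49 on celastrol replicate 3 against 10.62 to 10.63. Rpl7a was at 11.34 on celastrol replicate 2 against 11.22 to 11.23, and Rpl41 at 12.80 on DMSO replicate 2 against 12.74 on the other DMSO arrays. Of list means over DMSO, translation elongation was at 0.03 on DMSO replicate 1 against -0.01, control of TOP mRNAs at 0.01 on withaferin A replicate 3 against -0.05 to -0.04, and pituitary markers at 2.09 on celastrol replicate 2 against 0.39 to 0.43.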

How the results depend on the processing

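Limma called 0 of the ribosomal protein genes in each comparison under all 23 alternative settings, 12 of which left out an array. The cause of the differences below was not tested. The withaferin A median of -0.091 was -0.04 after a renewed quantile normalization, -0.041 after cyclic loess, an alternative chosen after seeing the data, and -0.137 with arrays centred on their median; against celastrol the median of -0.065 was -0.013 and -0.029 under the first and second of these. Leaving out 1 array gave medians of -0.113 to -0.078 for withaferin A, -0.039 to -0.007 for celastrol and -0.083 to -0.046 for withaferin A against celastrol. Genes lower at an unadjusted p under 0.05 then numbered 12 (without DMSO replicate 1) to 26 for withaferin A, 15 without withaferin A replicate 4, and against celastrol 5 (without withaferin A replicate 4 or celastrol replicate 2) to 18. Calls over all genes with other settings ran from 54 to 219 for celastrol, where 115 were reported, from 0 to 21 for withaferin A and from 0 to 77 between the compounds, and with 1 array left out from 6 to 207, 0 to 172 and 0 to 56. The replicate block left the medians at -0.091, -0.028 and -0.065, with 0 ribosomal protein genes called and 54, 0 and 7 genes called in all. The arrays' number and the unequal range of signals limit differences as small as these.

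Among the single genes named in the report, those below changed sign; sign changes of the other genes were not listed one by one. Against DMSO after withaferin A, renewed quantile normalization gave Rpl27 0.009, Rpl5 0.026, Rpl36a 0.031, Rpl7l1 0.033 and Rps18 0.036, and cyclic loess gave Rps6 0.001, Rpl27 0.004, Rpl36a 0.024, Rpl7l1 0.026 and Rps18 0.027. Centring gave Rplp0 -0.027 and Rpl41 -0.032, and the mean of a gene's probe sets gave Rplp0 -0.006. For withaferin A against celastrol, renewed quantile normalization gave Rpl41 0.038, Rpsa 0.047 and Rps18 0.056, cyclic loess Rpl41 0.009, Rpsa 0.038 and Rps18 0.045, centring Rps4l -0.001 and Rpl27 -0.002, and the mean of probe sets Rpl27 -0.039, Rps4l -0.054 and Rpsa 0.022. For celastrol against DMSO the mean of probe sets gave Rpl19 -0.042. With 1 array left out, the values ran for withaferin A from -0.001 to 0.038 for Rplp0, -0.05 to 0.004 for Rpl7l1 and -0.016 to 0.055 for Rpl41, for celastrol from -0.001 to 0.053 for Rpl7l1, -0.012 to 0.066 for Rpl19 and -0.045 to 0.002 for Rplp0, and between the compounds from -0.038 to 0.02 for Rpsa and -0.023 to 0.044 for Rps18.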

Other observations

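Many ribosomal protein genes lie on probe sets that the annotation gives several symbols, which the comparisons above leave out. Of 239 such probe sets, 234 were below 0 after withaferin A, with a median of -0.116, and 139 were below 0 after celastrol, with a median of -0.012. The 20 genes found only there, among them Rpl3, Rpl11 and Rpl32, have 92 of these probe sets. Of the 92, 89 were below 0 after withaferin A, with a median of -0.139, and 45 after celastrol, with a median of 0.003. Over all 35556 probe sets 42.6% were below 0 after withaferin A and 47.7% after celastrol. In the brightest decile of tested genes the shares were 76.1% and 65.1%. Many of the 92 name the same gene, such as Rpl17, and some hold equal rounded values, so these are not counts of genes. Limma called 0 of the 239 after withaferin A, and 0 of all probe sets. The lowest were probe sets shared by Rpl13a and the snoRNA genes in its introns, at -0.66 ± 0.12 with Snord32a (limma adjusted p = 0.193) and -0.56 ± 0.17 with Snord34, while a probe set shared by Rpl13a and Zfp526 was at 0.01. A probe set shared by Rps27rt and Rps27 was at -0.42 ± 0.09.

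Fau, which encodes the small-subunit protein eS30 fused to a ubiquitin-like protein and falls outside the name rule, differed by -0.07 after withaferin A and -0.04 after celastrol, with neither called by limma.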
